A study of Mus musculus with 8 samples.

Results

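The liver makes most of the proteins that carry metals, vitamins, hormones and lipids through the blood, and 33 of their genes were followed here in mouse hepatocytes given irisin. They are albumin and 7 other blood carriers, 6 genes of the fetuins and the inter-alpha-inhibitor, 13 apolipoproteins, 4 genes of enzymes and a transfer protein that act on plasma lipids, and 2 receptors. They were taken by name, whatever their signal, from 21612 genes named on the array, and all 33 were found, on 41 probes. The cells were AML12, a hepatocyte line from a mouse that carries a transgene for human transforming growth factor alpha. Irisin is the peptide cleaved from the membrane protein Fndc5. The 4 control cultures and the 4 irisin cultures (0.5 µg/ml) were kept for 24 h in the same serum-containing medium, and the RNA of each sample was labeled with Cy3 and put on 1 one-color Agilent array. The comparison asks which mRNAs of the hepatocyte change with irisin treatment. The labels do not say whether the replicates are separate cultures grown on separate days, so the p-values measure the spread between these samples, which may be technical.

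Albumin and the other carriers are secreted at high rates by the differentiated hepatocyte, and their promoters are read by liver transcription factors of the HNF1, HNF4 and C/EBP families. Apolipoproteins are the protein part of lipoproteins, in which fat and cholesterol travel. Apolipoprotein B builds the particles that leave the liver rich in triglyceride, apolipoproteins A-I and A-II build high density lipoproteins, and the smaller C and E apolipoproteins steer lipolysis and uptake. Lipases, a cholesterol-esterifying enzyme and a transfer protein then remodel the particles in plasma, and receptors such as Lrp1 and Scarb1 take up particles or their cholesterol.

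Signals are given as the log2 of the background-subtracted signal minus the log2 of the 75th percentile of the same array, so that 0 is the level of that percentile. The 75th percentile itself was lower in control cells, at 472 ± 70.1, than in irisin-treated cells, at 783 ± 71.6 (SD, n = 4 in each group), a difference of 0.74 on the log2 scale. The share of probes well above background was 59.5% to 63.6% for control arrays and 61.8% to 64.0% for irisin arrays. All controls shared a slide and a scan, and all irisin arrays shared another, so the treatment cannot be told apart from slide and scan. Over the tested probes irisin replicate 2 correlated with irisin replicates 1, 3 and 4 at 0.9942, 0.9945 and 0.9970. With the controls it correlated at 0.9940 to 0.9942. Irisin replicates 1, 3 and 4 correlated with each other at 0.9973 to 0.9977. Irisin replicate 2 is named for several genes below, and these are all values of 1 array. The cause was not tested. All 9 hepatocyte markers that were checked were well above background on all 8 arrays, and among them Asgr1 (-0.64) and Tat (-0.77) were down-regulated. Among all tested genes 10.2% were down-regulated at the same thresholds, given below. Asgr1 was dim, and before scaling its signals overlapped, at 17.9 to 24.5 on the control arrays and 19.7 to 26.5 on the irisin arrays. The defining stellate cell markers Lrat, Pdgfrb and Des, the endothelial markers Cdh5 and Tek and the macrophage marker Lyz2 were well above background on none of the 8 arrays. As a whole list, 2 of 7 stellate cell or fibroblast markers, 2 of 6 macrophage or blood cell markers and 2 of 5 endothelial markers were well above background on all arrays. Their summed signals were 45.2 to 51.3, 200.1 to 324 and 281 to 416 on the control arrays and 47.9 to 60.4, 364 to 405 and 329 to 470 on the irisin arrays. Of the bile duct markers 4 of 5 were well above background, with a summed signal of 20709 to 33034 on the control arrays and 39509 to 50686 on the irisin arrays. The part of other cell types in the results was not tested, and fewer expressing cells and less RNA in each cell cannot be told apart.

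Of the 33 genes, 31 were tested and 29 were well above background on every array. To be tested, a probe had to be well above background throughout the control group, the irisin group or both, and 38 of the 41 probes passed. In the sentences below a gene stands for its brightest tested probe. The signal of 14 tested genes lay above the 75th percentile on all 8 arrays and that of the other 17 lay below it on all 8. The genes above it were Alb, Ttr, Trf, Rbp4, Gc, Cp, Selenop, Ambp, Itih2, Apob, Apoc1, Apoc2, Apoe and Scarb1. Apoa4, an apolipoprotein of the intestine and liver, and Lipc, the hepatic lipase, were well above background on none of the arrays, which left them out of the test. Their signals were 1.30 to 3.41 for Apoa4 and 0.949 to 1.69 for Lipc before scaling, against a median of 0.988 to 1.01 over the negative control spots of an array.

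**Figure D1:**
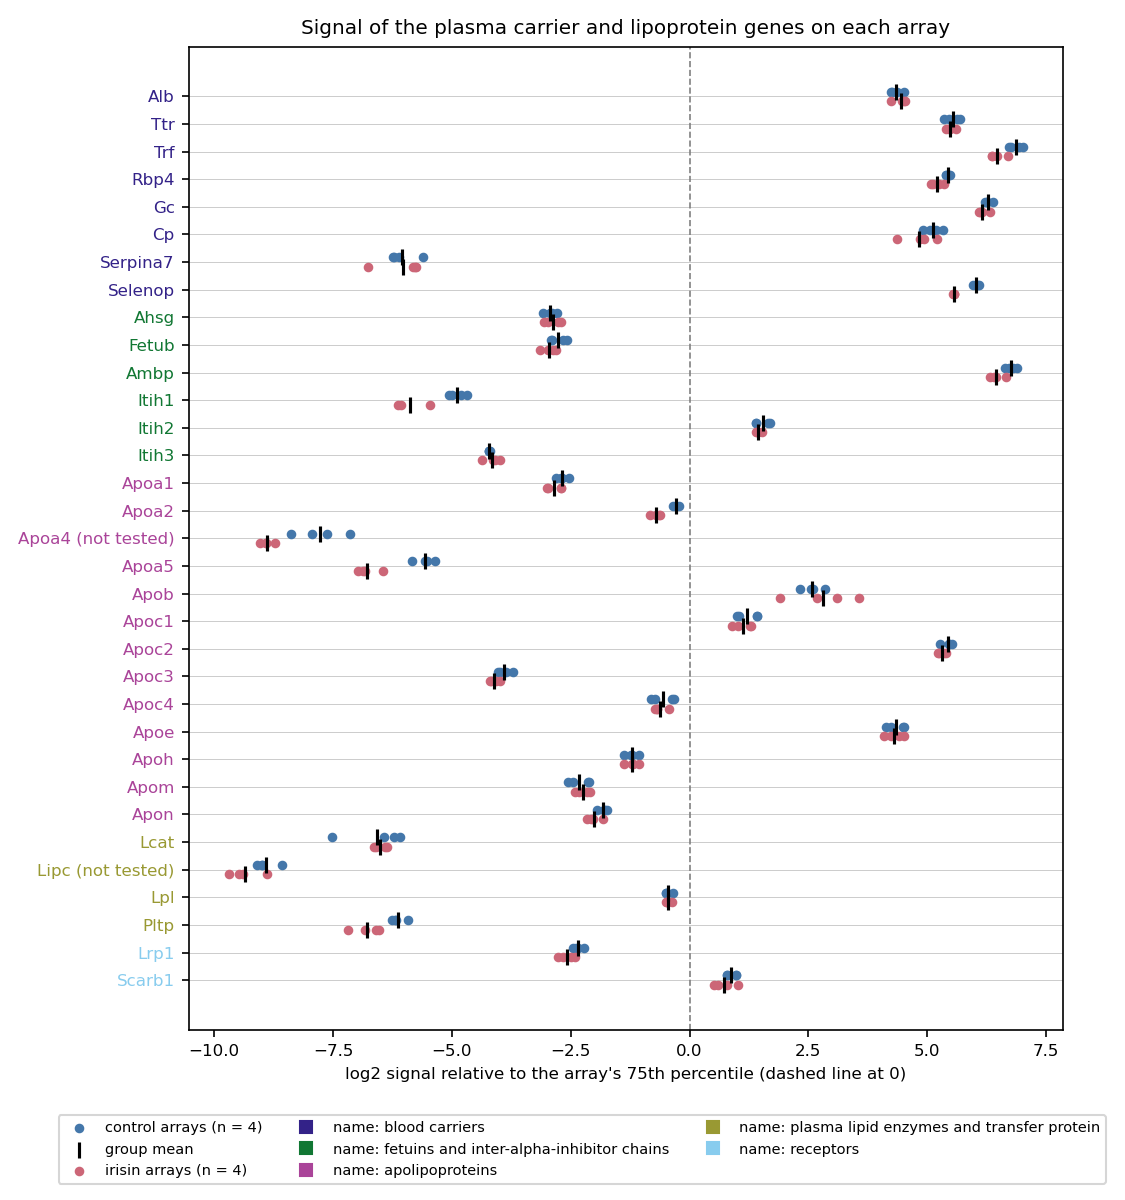
Signal of the 33 genes on each array, as log2 against each array's 75th percentile (horizontal axis), with control arrays in blue, irisin arrays in red, group means as black marks and gene names colored by role. The blood carriers other than Serpina7 lie above 0 in both groups, and the groups lie apart for genes such as Selenop, Apoa2, Itih1 and Apoa5. Itih1 has 3 irisin points because the spot of irisin replicate 2 was left out.

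No gene of the 31 was up-regulated and 3 were down-regulated at a change of at least 1.5-fold and an adjusted p under 0.05 in limma. These were Apoa5, Itih1 and Pltp, all dim, and the methods' analysis of variance at the same thresholds also called 0 higher and 3 lower. Among all 14311 tested genes 10.2% were down-regulated and 0.531% were up-regulated at these thresholds, so that the share of down-regulated genes in the group was close to that of all genes. With the adjusted p alone 7 of the 31 fell, where 17.9% of all genes did, and none rose, where 2.65% of all genes did. The 4 further genes were Selenop, Apoa2, Trf and Ambp. An unadjusted p under 0.05 in limma was found for 9 genes, all of them lower with irisin. The share of all genes at this threshold was not counted, so the 9 are not read as a trait of the group. Over the 31 genes the log2 change had a median of -0.12, against -0.064 for all tested genes, with 9 genes above 0, 22 below 0 and a range from -1.21 to 0.24. For 22 of the 31 genes the 95% interval of the change lay within 1.5-fold in both directions.

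**Figure D2:**
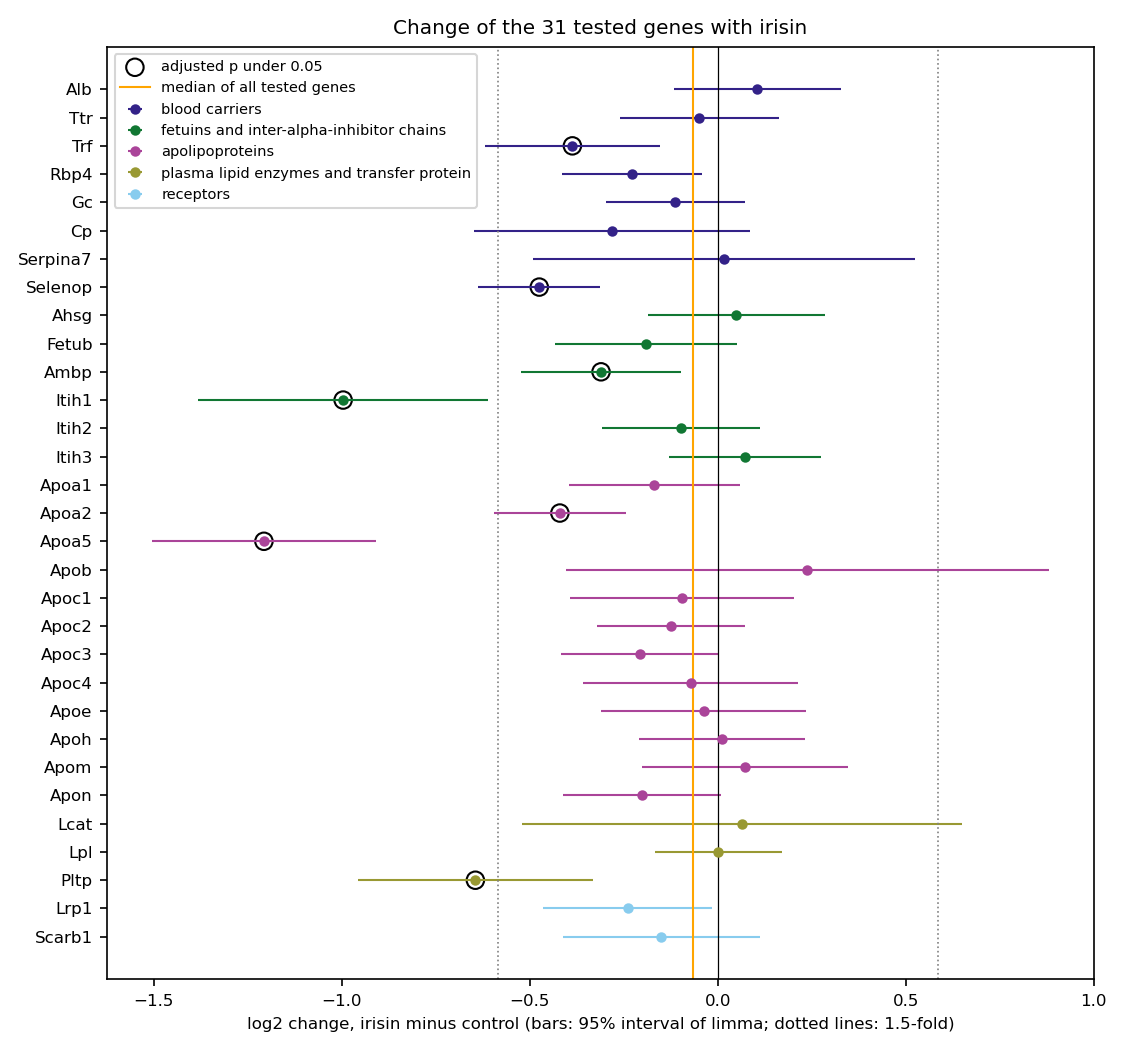
Log2 change, irisin minus control, of the 31 tested genes with the 95% interval of limma as bars. Dotted lines mark 1.5-fold, the orange line marks the median of all tested genes (-0.064), and open circles mark the 7 genes with an adjusted p under 0.05, all of which lie below 0.

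The change of a gene has to be read beside its signal. When the tested probes were split into deciles by signal, 33.0% of the probes in the 3 dimmest were down-regulated, against 2.54% in the other deciles. Of the 31 genes 7 lay in the 3 dimmest deciles, and all 3 down-regulated genes were among them. In the brightest decile the median change of all probes was -0.20, and the 10 genes of the group in that decile had a median change of -0.18. Trf, Ambp and Selenop lay in the brightest decile. Apoa2 lay in the sixth decile, where the median change of all probes was 0.0021. The part of the signal level in these changes was not tested.

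**Figure D3:**
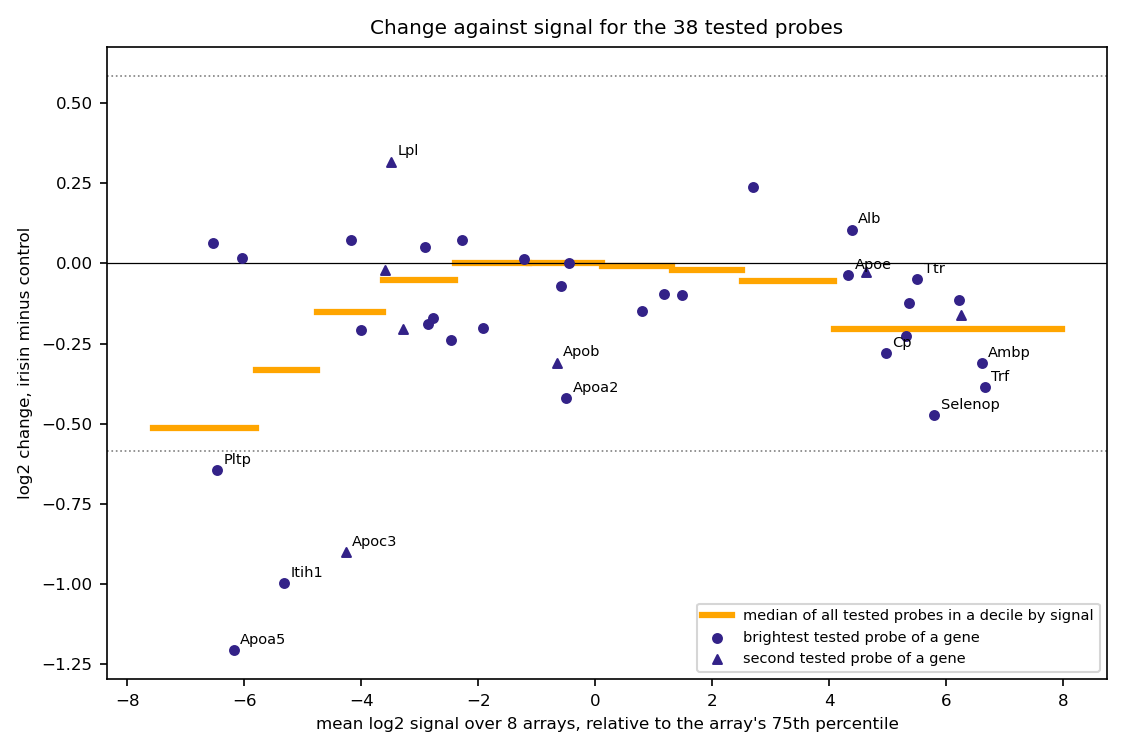
Log2 change, irisin minus control (vertical axis), of the 38 tested probes against their mean log2 signal over the 8 arrays (horizontal axis). Circles are the brightest probe of a gene, triangles are second probes, and orange bars are the median change of all tested probes in each decile by signal. The bars fall to -0.51 in the dimmest decile and to -0.20 in the brightest, and Apoa5, Itih1, Pltp and the second probe of Apoc3 lie below the bar of their decile.

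The stretches upstream of the genes are shown for albumin, a standard liver promoter, and for Apoa2, Selenop and Apoa5. These are only some of the 7 genes that fell at the adjusted p. The stretches of Itih1, Pltp and Ambp are not shown, and none was given for Trf. Each is the 250 bases before an annotated transcript start, 5′ to 3′, from RefSeq on GRCm38.p6, and where a gene has several starts the one farthest downstream was taken. Capitals mark matches, on either strand, to GTTAAT (a core of HNF1 sites), TTGCNNAA (C/EBP), CAAAGTCCA (HNF4), CCAAT and TATAAA.
Alb, chr5:90460620-90460869, plus strand: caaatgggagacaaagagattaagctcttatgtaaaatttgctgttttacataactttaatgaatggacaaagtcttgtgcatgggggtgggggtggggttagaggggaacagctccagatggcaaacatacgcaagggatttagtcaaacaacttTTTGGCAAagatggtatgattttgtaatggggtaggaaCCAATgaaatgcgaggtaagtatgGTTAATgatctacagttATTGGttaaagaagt
Apoa2, chr1:171224804-171225053, plus strand: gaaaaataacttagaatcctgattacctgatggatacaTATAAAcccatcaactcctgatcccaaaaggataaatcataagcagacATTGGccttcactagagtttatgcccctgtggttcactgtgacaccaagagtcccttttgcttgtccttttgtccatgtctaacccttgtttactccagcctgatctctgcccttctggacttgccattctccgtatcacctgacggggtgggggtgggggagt
Selenop, chr15:3270727-3270976, plus strand: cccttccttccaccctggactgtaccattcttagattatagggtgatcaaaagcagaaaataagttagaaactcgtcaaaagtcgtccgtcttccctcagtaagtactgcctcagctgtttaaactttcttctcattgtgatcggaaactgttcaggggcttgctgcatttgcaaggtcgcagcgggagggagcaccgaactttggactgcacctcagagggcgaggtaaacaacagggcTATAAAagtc
Apoa5, chr9:46268383-46268632, plus strand: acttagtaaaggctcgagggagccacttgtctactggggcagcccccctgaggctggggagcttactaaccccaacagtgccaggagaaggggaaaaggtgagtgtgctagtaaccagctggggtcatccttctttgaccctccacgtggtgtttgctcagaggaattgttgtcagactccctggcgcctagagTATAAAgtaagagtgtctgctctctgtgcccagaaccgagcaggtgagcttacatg

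The albumin stretch held 4 matches, with the C/EBP match starting 94 bases, the CCAAT matches 56 and 15 bases and the HNF1 match 32 bases before the start. The Apoa2 stretch held a CCAAT match and a TATAAA match, and the Selenop and Apoa5 stretches held 1 TATAAA match each. Windows of 300 bases, which also take in the 50 bases after the start, were given for 27 of the 33 genes, 38 windows in all. GTTAAT was found in 21.1% of these windows and in 7.10% of all 32851 windows of the table. TTGCNNAA was found in 26.3% against 10.8%, TATAAA in 34.2% against 13.6%, and CCAAT in 36.8% against 37.4%. CAAAGTCCA was found in none of the 38 windows and in 0.475% of all windows. Of the genes that fell at the adjusted p, Itih1 had GTTAAT in its windows, and Apoa2 and Pltp had TTGCNNAA. Selenop, Apoa5 and Ambp had neither. Such a match is a run of letters and not a measured site, and windows of 1 gene overlap in part.

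Among the 8 blood carriers Selenop and Trf fell at the adjusted p, by less than 1.5-fold, and the 6 others did not pass the test. Alb, the main protein of plasma and a carrier of fatty acids, had log2 signals of 4.25, 4.23, 4.51 and 4.36 on the control arrays and 4.53, 4.23, 4.52 and 4.48 on the irisin arrays. The groups overlapped, since irisin replicate 2 lay at the level of the lowest controls. The mean was 4.34 ± 0.127 in control cells and 4.44 ± 0.141 in irisin-treated cells (SD, n = 4 in each group), a log2 change of 0.11 with a 95% interval from -0.12 to 0.33 (adjusted p = 0.518 from limma). Ttr, which carries thyroid hormone and retinol-binding protein, had signals of 5.46, 5.36, 5.63 and 5.68 on the control arrays and 5.47, 5.60, 5.39 and 5.48 on the irisin arrays. These groups overlapped fully, and the log2 change was -0.049 with an interval from -0.26 to 0.16 (adjusted p = 0.777 from limma).

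Selenop, the selenium carrier of plasma, had the lowest adjusted p of the blood carriers. Its log2 signals were 6.07, 5.95, 6.02 and 6.10 on the control arrays and 5.57, 5.56, 5.57 and 5.54 on the irisin arrays. Every irisin array lay below every control array, and the 4 irisin arrays had an SD of 0.0125. The change was -0.47 ± 0.073 on the log2 scale (standard error; limma, adjusted p = 0.000867), and before scaling the signals were 25016 to 34637 on the control arrays and 32266 to 39662 on the irisin arrays. With cyclic loess the change was -0.28 (adjusted p = 0.0279 from limma) and with quantile normalization -0.22 (adjusted p = 0.0726 from limma).

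Trf, the iron carrier transferrin, had log2 signals of 7.02, 6.73, 6.77 and 6.93 on the control arrays and 6.37, 6.70, 6.47 and 6.36 on the irisin arrays. The groups did not overlap, and irisin replicate 2 was the irisin array nearest the controls. The change was -0.39 ± 0.10 on the log2 scale (standard error; limma, adjusted p = 0.0204). It was -0.019 with quantile normalization (adjusted p = 0.881 from limma) and -0.15 with cyclic loess (adjusted p = 0.192 from limma). Without control replicate 1, control replicate 4, irisin replicate 1 or irisin replicate 4 the adjusted p was 0.0549 to 0.0675 in limma. The second probe of Trf changed by -0.16 with overlapping groups.

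The other blood carriers did not pass the test. Rbp4, the retinol carrier, changed by -0.23 (adjusted p = 0.0775 from limma), with groups that did not overlap. Gc, which carries vitamin D, changed by -0.11 and its second probe by -0.027, but by 0.21 after quantile normalization (adjusted p = 0.0309 from limma). Cp, the copper protein ceruloplasmin, changed by -0.28 with a mean of 5.12 ± 0.177 in control cells and 4.84 ± 0.354 in irisin-treated cells (SD, n = 4 in each group), and irisin replicate 2 was its lowest array at 4.36. Serpina7, a thyroid hormone carrier, changed by 0.017 with an interval from -0.49 to 0.53, and irisin replicate 2 was its lowest array at -6.76.

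Among the 6 genes of the fetuins and the inter-alpha-inhibitor, Itih1 was down-regulated, Ambp fell at the adjusted p and 4 did not pass the test. Itih1 encodes a heavy chain that is linked to hyaluronan outside the cell. Its log2 signals were -4.82, -5.07, -5.00 and -4.68 on the control arrays and -6.07, -6.13 and -5.46 on 3 irisin arrays. The 3 irisin values lay below all controls and irisin replicate 4 was nearest to them. The change was -0.996 ± 0.17 on the log2 scale (standard error; limma, adjusted p = 0.00220), 1.99-fold lower with irisin. The spot of irisin replicate 2 was marked as an outlier at a signal of 5360 before scaling and was left out. With that spot kept the change was 1.22 (adjusted p = 0.681 from limma). Itih1 lay in the second dimmest decile, where the median change of all probes was -0.33, and with cyclic loess its change was -0.58, just under 1.5-fold. Before scaling its signals were 13.2 to 19.5 on the control arrays and 11.5 to 19.4 on the 3 irisin arrays. It was called lower with quantile normalization (-0.61) and normexp (-0.80), but was at -0.17 with normexp followed by quantile normalization. Spike-in scaling gave -0.26 (adjusted p = 0.336 from limma) and no scaling -0.19 (adjusted p = 0.388 from limma).

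Ambp encodes bikunin, the light chain of the same inhibitor, together with alpha-1-microglobulin. It fell by 0.31 on the log2 scale (standard error 0.096, adjusted p = 0.0370 from limma), from 6.77 ± 0.103 to 6.46 ± 0.139 (SD, n = 4 in each group). Control replicate 2 and irisin replicate 2 overlapped, both at 6.65. The change was 0.066 after quantile normalization (adjusted p = 0.545 from limma), -0.079 after cyclic loess (adjusted p = 0.425 from limma) and -0.17 with normexp (adjusted p = 0.116 from limma), so it passed the test in none of the 3. The adjusted p stayed under 0.05 only without control replicate 2 or irisin replicate 2, and without any other single array it was 0.0651 to 0.108 in limma. The other chains, Itih2 and Itih3, changed by -0.097 and 0.073. Itih3 passed the adjusted p in either direction with other settings, at 0.29 after quantile normalization (adjusted p = 0.0481 from limma), 0.32 after cyclic loess (adjusted p = 0.0274 from limma) and -0.40 with normexp (adjusted p = 0.00196 from limma), each under 1.5-fold. Spike-in scaling called it higher at 0.65 (adjusted p = 0.0274 from limma). Itih3 lies next to Itih1 on the chromosome with no coding gene between them, and its 4 control arrays had an SD of 0.0123 around a mean of -4.22. Of the fetuins, which are neighbors as well and bind minerals or inhibit proteases, Ahsg changed by 0.050 and Fetub by -0.19, with overlapping groups.

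Of the 13 apolipoproteins 12 were tested, and Apoa5 was down-regulated, Apoa2 fell at the adjusted p and 10 did not pass the test with their brightest probe. Apoa5, which promotes the clearance of triglyceride by lipoprotein lipase, had log2 signals of -5.35, -5.53, -5.57 and -5.84 on the control arrays and -6.97, -6.83, -6.86 and -6.45 on the irisin arrays. The groups did not overlap. The change was -1.21 ± 0.13 on the log2 scale (standard error; limma, adjusted p = 0.000176), 2.31-fold lower with irisin. Apoa5 lay in the dimmest decile, where the median change of all probes was -0.51, and before scaling its signals were 8.70 to 11.2 on the control arrays and 5.97 to 9.72 on the irisin arrays. Quantile normalization gave -0.70 and cyclic loess -0.71, with a call each time. Apoa5 was at -0.094 without a call when quantile normalization followed normexp.

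Apoa2, the second protein of high density lipoproteins, had log2 signals of -0.34, -0.28, -0.22 and -0.28 on the control arrays and -0.82, -0.63, -0.71 and -0.63 on the irisin arrays. Every irisin array lay below every control array. The change was -0.42 ± 0.080 on the log2 scale (standard error; limma, adjusted p = 0.00282), 1.34-fold lower with irisin. Quantile normalization gave -0.42 (adjusted p = 0.00503 from limma) and cyclic loess also -0.42 (adjusted p = 0.00384 from limma), and the change ranged from -0.44 to -0.38 when single arrays were omitted. Spike-in scaling gave 0.16 (adjusted p = 0.545 from limma) and no scaling 0.32 (adjusted p = 0.0955 from limma). The second probe of Apoa2 was well above background on none of the arrays.

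Apoa1, the main protein of high density lipoproteins, had log2 signals of -2.71, -2.53, -2.69 and -2.80 on the control arrays and -2.98, -2.71, -3.00 and -2.71 on the irisin arrays. The groups met at about -2.71, and the log2 change was -0.17 with an interval from -0.40 to 0.058 (adjusted p = 0.288 from limma). Apoa1, Apoc3, Apoa4 and Apoa5 follow each other on the chromosome with no coding gene between them. Apoc3, an inhibitor of lipoprotein lipase, changed by -0.21 on its brightest probe (adjusted p = 0.151 from limma). Its second probe, tied to another transcript of the gene, had log2 signals of -3.77, -4.04, -3.70 and -3.76 on the control arrays and -4.75, -4.65, -4.76 and -4.70 on the irisin arrays. There the groups did not overlap and the change was -0.90 ± 0.092 on the log2 scale (standard error; limma, adjusted p = 0.000129). The 2 probes of Apoc3 thus disagreed on the call, and both lay in the third dimmest decile.

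Apob, the structural protein of the triglyceride-rich particles made by the liver, had log2 signals of 2.59, 2.84, 2.55 and 2.33 on the control arrays and 3.096, 1.90, 3.57 and 2.69 on the irisin arrays. The irisin arrays spread on both sides of the controls, with irisin replicate 2 the lowest and irisin replicate 3 the highest of all 8. The log2 change was 0.24 with an interval from -0.40 to 0.88 (adjusted p = 0.630 from limma), 0.54 without irisin replicate 2 and -0.014 without irisin replicate 3. Its second probe changed by -0.31, also with overlapping groups.

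Apoe, a ligand of the lipoprotein receptors, had log2 signals of 4.14, 4.23, 4.50 and 4.52 on the control arrays and 4.09, 4.51, 4.23 and 4.40 on the irisin arrays. The groups overlapped almost wholly, and the log2 change was -0.037 with an interval from -0.31 to 0.24 (adjusted p = 0.875 from limma). Its neighbors on the chromosome are Apoc1, Apoc4 and Apoc2, the last an activator of lipoprotein lipase. Apoc1 changed by -0.094, Apoc4 by -0.072 and Apoc2 by -0.12, so that the brightest probes of the 4 neighbors lay between -0.12 and -0.037. Apoh changed by 0.012, Apom, a carrier of sphingosine phosphate, by 0.073 and Apon by -0.20 (adjusted p = 0.166 from limma), each with overlapping groups.

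Among the genes that act on lipids in plasma, Pltp was down-regulated and Lcat and Lpl did not pass the test. Pltp, the phospholipid transfer protein, had log2 signals of -6.18, -5.93, -6.20 and -6.27 on the control arrays and -6.83, -6.54, -6.60 and -7.18 on the irisin arrays. The groups did not overlap, and the change was -0.64 ± 0.14 on the log2 scale (standard error; limma, adjusted p = 0.00639), 1.56-fold lower with irisin. The median change of its decile was -0.51, and before scaling the groups overlapped, with signals of 5.13 to 7.96 on the control arrays and 5.88 to 8.29 on the irisin arrays. With quantile normalization the change was -0.086 and with cyclic loess -0.12, both without a call. It was -0.57 without control replicate 2 and -0.51 without irisin replicate 4, under 1.5-fold each time.

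Lcat, which esterifies cholesterol on high density lipoproteins, was well above background on all irisin arrays and on 2 of the 4 control arrays. Its log2 signals were -6.43, -7.53, -6.23 and -6.10 on the control arrays and -6.60, -6.42, -6.36 and -6.64 on the irisin arrays. Control replicate 2 lay far below the rest, and the other arrays of both groups overlapped. The log2 change was 0.064 with an interval from -0.52 to 0.65 (adjusted p = 0.901 from limma), and without control replicate 2 it was -0.26. With normexp background correction Lcat was called lower at -0.60 (adjusted p = 7.23e-05 from limma). The offset of normexp by construction places dim probes lower on the brighter irisin arrays, and its part in this value was not tested. Lcat was at 0.65 after quantile normalization (adjusted p = 0.169 from limma) and 0.60 after cyclic loess (adjusted p = 0.162 from limma). Spike-in scaling called it higher at 0.64 (adjusted p = 0.0426 from limma). Lpl, the lipoprotein lipase, changed by 0.0016 with an interval from -0.17 to 0.17. Its second probe had log2 signals of -3.67, -3.56, -3.61 and -3.74 on the control arrays and -3.22, -3.54, -3.26 and -3.30 on the irisin arrays, and irisin replicate 2 lay next to the controls. That probe changed by 0.32 (adjusted p = 0.0295 from limma), under 1.5-fold. It was 0.46 after quantile normalization and 0.49 after cyclic loess, but -0.18 with normexp (adjusted p = 0.117 from limma). Spike-in scaling gave 0.89 (adjusted p = 0.00900 from limma), above 1.5-fold. The receptors Lrp1, which takes up remnants, and Scarb1, the receptor for high density lipoproteins, changed by -0.24 (adjusted p = 0.120 from limma) and -0.15 (adjusted p = 0.425 from limma). The second probe of Scarb1 changed by -0.020.

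The scaling between arrays set where the group as a whole lay. With quantile normalization 2 of the 31 genes were down-regulated, Apoa5 and Itih1, where 3.82% of all genes were. With cyclic loess 1 was, Apoa5, where 3.41% of all genes were. With scaling to the spike-in RNA, which is added in equal amounts to each labeling, 7 of the 31 genes were up-regulated, where 33.4% of all genes were, and with no scaling 17 were, where 66.8% of all genes were. In the same order the median log2 change of the 31 genes was -0.023, -0.062, 0.45 and 0.61. For all genes these medians were 0.0053, 0.023, 0.51 and 0.67. The median of the 31 genes was below that of all genes in each of these. Alb was called up-regulated in the last 2, at 0.68 and 0.84. Selenop, Trf and Ambp, which fell with the 75th percentile, were above 0 in the last 2, at 0.10 and 0.26, 0.19 and 0.35, and 0.27 and 0.43. None of them reached 1.5-fold there, and unscaled Ambp rose at the adjusted p (adjusted p = 0.0235 from limma).

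**Figure D4:**
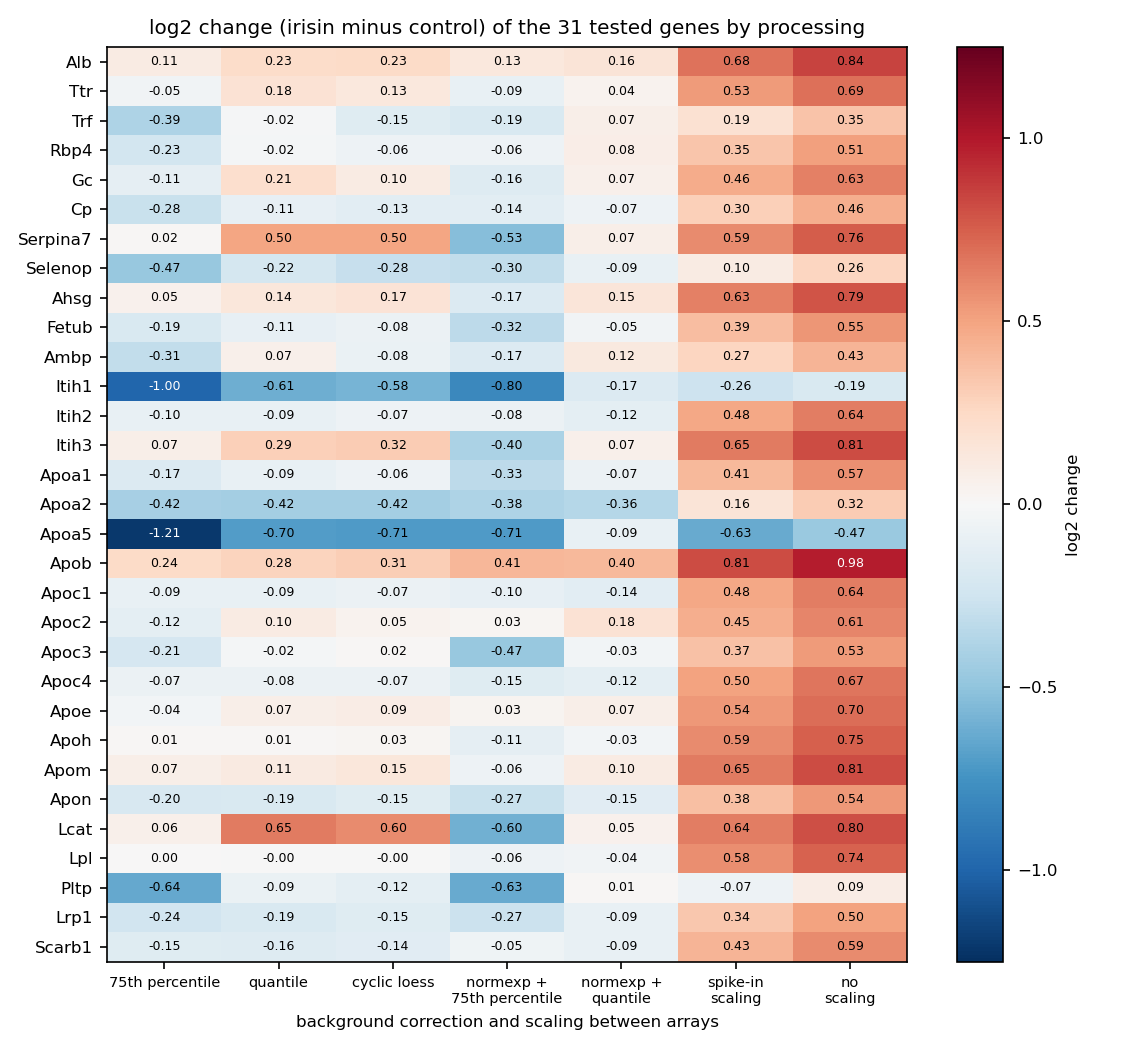
Log2 change, irisin minus control, of the 31 tested genes (rows) under 7 ways of correcting the background and scaling the arrays (columns), with blue for lower and red for higher in irisin-treated cells. Apoa2 lies between -0.42 and -0.36 in the first 5 columns, Apoa5 is below 0 in all 7, and most genes are above 0 in the last 2.

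Genes outside the group that assemble, bind or clear lipoproteins were counted from a list of 40, of which 31 were tested. Of these 3 were down-regulated, Sort1 (-0.61), Gpihbp1 (-0.77) and Apod (-0.89), and the others were not called, with a median change of -0.033 over the list. Among all tested genes 10.2% were down-regulated, so the count is close to that share. Sort1 and Gpihbp1 lay in the third dimmest decile and Apod in the second dimmest. Sort1, a sorting receptor for apolipoprotein B, had other probes at -0.14 and 0.093, and Gpihbp1 holds lipoprotein lipase at the vessel wall. Mttp, which loads lipid onto apolipoprotein B, changed by -0.048 (adjusted p = 0.796 from limma) and Abca1, which exports cholesterol to apolipoprotein A-I, by 0.33 (adjusted p = 0.190 from limma). Of 29 other carrier and secreted liver genes 24 were tested and 2 were down-regulated, Hrg (-1.06), which binds heparin and metals, and Fth1 (-0.61), a ferritin chain. This count too is near the share of all genes, and Hrg lay in the second dimmest decile. Fth1 lay in the brightest decile and fell from 7.12 ± 0.0630 to 6.50 ± 0.0947 (SD, n = 4 in each group; adjusted p = 0.000387 from limma). Before scaling its signals overlapped, at 54859 to 73146 on the control arrays and 67206 to 73520 on the irisin arrays. In that decile 54 of 2410 tested probes were down-regulated and 0 were up-regulated. All 22 transcription factors of the list were tested and 1 was down-regulated, Nr0b2 (-0.79), a repressor of bile acid and lipid genes that lay in the dimmest decile. Hnf4a, a main activator of the apolipoprotein genes, changed by -0.097 (adjusted p = 0.491 from limma).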

How the data were processed

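The authors labeled RNA of 4 control and 4 irisin-treated AML12 samples with Cy3 and hybridized each to 1 Agilent array. The authors deposited signal intensity on a linear scale from Feature Extraction 12.0.3.1, which had subtracted the background and corrected spatial trends without normalizing between arrays. A deposited value table deviated from the mean intensity of each probe's spots by at most 0.0005% on each array. The methods name no scaling between arrays. The samples were grouped by their labels.

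Spots marked as outliers were left out (at most 0.463% of an array), spots of 1 probe were averaged, and log2 values were taken relative to each array's 75th percentile. The accessions of 28663 of 39429 probes (72.7%) matched genes of the RefSeq table of GRCm38.p6, and 24092 probes were tested. The change was fitted with limma 3.58.1 (lmFit and eBayes, Benjamini-Hochberg over all tested probes) in R 4.3.3. The brightest tested probe stood for a gene. Python 3.11.15 with pandas 2.3.3, numpy 2.4.6 and matplotlib 3.10.9 read the files and drew the plots. The number of arrays limits the precision.

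Alternative settings were normexp (offset 50), quantile normalization, cyclic loess, scaling to detected probes' median or to 8 spike-in probes and unscaled values. Further alternatives were the deposited table, a looser or tighter detection filter, keeping the marked spots, eBayes with trend and robust settings, a replicate block, omission of single arrays, the methods' analysis of variance, the adjusted p alone, a 2-fold threshold and the mean over a gene's probes. Normexp used the median spot signal, the raw signal in the files, and marked local backgrounds were replaced by the array's median background. Normexp followed by quantile normalization was added after seeing the data.

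All 33 genes are accounted for. Values on every array are given for genes called with the 75th percentile, quantile normalization, cyclic loess or normexp, and for Alb, Ttr, Trf, Apoa1, Apob and Apoe. For Apoa2, Selenop and the second probe of Lpl they were added after their values were seen. From the lists outside the group only called genes, Mttp, Abca1 and Hnf4a are named, and 1 further gene of the rule is not reported here. The genes of the group and the lists were chosen with earlier results of these data known.

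In a simulation of the irisin against control comparison, 96.5% of 200 probes changed by 1.5 on the log2 scale were recovered among 24092 probes, with 5 false calls. This change was larger than that of any of the 31 genes, which ranged from -1.21 to 0.24. The noise was drawn independently for each probe, without a slide effect or a shift with signal. The recovery of smaller changes was not tested. The deviations of same-numbered control and irisin arrays had correlations of 0.109, -0.348, -0.125 and 0.165. Those of differently numbered arrays had correlations of -0.238 to 0.365. Whether the replicate numbers pair the samples by culture or day was not tested.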

Additional observations from a re-analysis of the deposited data

Results flagged for a closer look

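In 61 groups of 4 arrays, 1 for each tested gene and treatment with all 4 values present, the gap between the highest or lowest array and the nearest other was set against Dixon's critical value for 4 values, which chance exceeds in about 1 group of 20. It was exceeded in 3 groups. Apoc4 on irisin replicate 4 was at -0.42, above the other irisin arrays at -0.72 to -0.68. Lpl on control replicate 3 was at -0.36, above the other controls at -0.49 to -0.47. Serpina7 on irisin replicate 2 was at -6.76, below the other irisin arrays at -5.81 to -5.76. All 3 are log2 signals relative to the 75th percentile, none of the 3 genes was called, and the cause was not tested.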

How the results depend on the processing

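With the 75th percentile 172 probes were higher and 2815 lower in irisin-treated cells, and among the 31 genes 0 and 3. The probes higher and lower were 670 and 1021 after quantile normalization, 699 and 926 after cyclic loess, 7817 and 362 after scaling to spike-ins, 14920 and 162 unscaled, 53 and 3757 with normexp, 54 and 68 with normexp followed by quantile normalization, 713 and 5196 with the adjusted p alone, and 23 and 777 at 2-fold. The methods' ANOVA called 108 higher, and with no filter on dim probes 12750 were lower. Normexp adds an equal offset to arrays whose 75th percentiles differ, which by construction places dim probes lower on the brighter irisin arrays. With single arrays left out the probes higher were 102 to 335 (102 without irisin replicate 3, 335 without irisin replicate 2) and those lower 2631 to 3051, and 2 to 3 of the 31 genes were down-regulated. Of the 31 genes 1 was down-regulated after cyclic loess, 1 after scaling to spike-ins, 0 unscaled, 0 with normexp followed by quantile normalization, 7 with the adjusted p alone and 1 at 2-fold, and 7 and 17 were up-regulated when scaled to spike-ins and unscaled. Their median change was then 0.45 and 0.61. Unscaled, 29 of the 31 genes lay above 0, against 9 with the 75th percentile, and 25 of 38 probes changed sign. Those that had been below 0 and were then called higher were Ttr (0.69), Gc (0.63 and 0.71 on its probes), Itih2 (0.64), Apoc1 (0.64), Apoc2 (0.61), Apoc4 (0.67), Apoe (0.70) and Scarb1 (0.59 and 0.72), while Pltp, called lower before, was at 0.094. Itih1 was 1.22 with the deposited table and 1.22 with marked spots kept, both through 1 marked spot. Lcat was -0.60 with normexp, and Pltp was 0.011 with normexp followed by quantile normalization. With the replicate block 173 probes were higher and 2831 lower, 3 of the 31 genes were down-regulated, and no gene of the group changed its call at both thresholds. At the adjusted p alone Trf (0.0594) and Ambp (0.0911) did not pass with the block. Apart from the Itih1 values, which were fitted with and without the marked spot, the cause was not tested. Normexp was run with 1 offset only. Signals near the negative controls, such as those of Apoa5, Pltp and Lcat, limit what the arrays resolve.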
